A study of Mus musculus with 4 samples.

Results

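The genes described here are 10 members of the Bcl2 family, chosen by name as the rows of the expression table for the anti-apoptotic genes *Bcl2*, *Bcl2l1*, *Bcl2l2* and *Mcl1*, the effector genes *Bax* and *Bak1*, and the BH3-only genes *Bbc3*, *Bcl2l11*, *Bid* and *Bad*. All 10 were found among the 56883 genes of the table, and all 10 reached the mean normalized count of 10 required for testing, as did 14323 genes in all. They were compared between tdTomato-positive cells sorted from the basal telencephalon of mouse embryos at E14.5, with 2 libraries of *Sst-Cre/tdTomato* embryos (control) and 2 libraries of *Sst-Cre/tdTomato/Dnmt1 loxP2* embryos (*Dnmt1* KO). Both genotypes carry *Cre* in the somatostatin (*Sst*) locus and a *Cre*-dependent tdTomato reporter, and the *Dnmt1* KO embryos in addition have loxP-flanked exons of *Dnmt1*, so that the deletion depends on a cell having switched on *Sst*. The strains had a C57BL/6J background. Each library was made from the pooled cells of several embryos whose sex was not distinguished, RNA was isolated from 50000 pooled cells per genotype, and the spread between single embryos was therefore not measured.

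Proteins of the Bcl2 family decide at the outer mitochondrial membrane whether a cell enters intrinsic apoptosis. BAX and BAK1 form pores through which cytochrome c leaves the mitochondria, anti-apoptotic members such as BCL2, BCL-XL (from *Bcl2l1*) and MCL1 hold them in check, and BH3-only proteins, switched on by stress signals, bind the anti-apoptotic members or activate the effectors directly. In the developing nervous system, a part of the newborn neurons, interneurons included, is removed by this route, and much of the control lies in protein stability, phosphorylation and localization, which RNA counts do not capture.

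The libraries held 6970247 to 8376711 reads on genes. The normalized count is the number of reads assigned to a gene, which the study quantified with Salmon, divided by 1 size factor per library. *Dnmt1*, the targeted gene, had 2238 and 2341 normalized counts in control and 2164 and 2210 in *Dnmt1* KO libraries (log2 fold change -0.066 ± 0.054, SE, with limma's adjusted p = 0.461), and a count over the whole gene cannot separate transcripts with the loxP-flanked exons from those without. For E14.5 embryos, the study reported weaker DNMT1 immunostaining in tdTomato-positive cells of *Dnmt1* KO brains. It also reported lower *Dnmt1* transcript counts in cells sorted from the cortex. The defining marker *Sst* was present in every library, at 5580 to 5963 in control and 7825 to 8303 in *Dnmt1* KO cells. The 12 interneuron identity markers summed to 21486 to 21768 normalized counts in control and 33286 to 33547 in *Dnmt1* KO libraries, with 11 of 12 called higher and 0 called lower. The summed level of 12 markers of cycling cells was 9666 to 9797 against 6823 to 6829, that of 12 radial glia markers 11989 to 12211 against 7476 to 7650, and that of 12 vascular and microglia markers 674 to 724 against 283 to 304. The 11 blood markers in the table summed to 2434 to 2615 against 587 to 593, and the 12 markers of the excitatory lineage to 6804 to 6860 against 6277 to 6513. *Bcl11b*, which rose (log2 fold change 0.45, limma's adjusted p = 8.2e-06), held the largest part of the excitatory sum, and the other 11 excitatory markers summed to 3454 and 3544 in control and 1917 and 1763 in *Dnmt1* KO libraries, with 11 of 11 below both control libraries in both *Dnmt1* KO libraries. No marker of these lists was at 0 in all 4 libraries. In these libraries, 12 of 12 cycling, 8 of 12 radial glia, 9 of 12 excitatory, 8 of 9 tested vascular and microglia and 8 of 8 tested blood markers were called lower. Among the blood markers, *Alas2* (mean 49.4 in control and 8.21 in *Dnmt1* KO) and *Slc4a1* (26.2 and 6.52) reached the filter of 10 only through the control libraries. The same holds for the vascular and microglia marker *Cx3cr1* (22.7 and 7.82), which was not called. The radial glia marker *Sox2* (log2 fold change 0.40 at an adjusted p of 0.00048 in limma) and *Bcl11b* were called higher, and the other lists had 0 called higher apart from the interneuron markers. The marker levels and the genotype cannot be told apart in any comparison that follows.

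Of the 10 Bcl2 family genes, 1 was higher in *Dnmt1* KO cells and 0 were lower at an adjusted p below 0.05 (limma on log2(normalized count + 1), Benjamini-Hochberg adjustment over all 14323 genes tested). The gene was *Bak1*. The share of 1 in 10 lies below the 17.3% of all genes tested that were called in either direction, 8.30% being called higher and 8.99% lower. The median log2 fold change of the 10 genes was 0.043, with a range of -0.19 to 0.58, beside a median of -0.0033 over all genes tested. The median of the absolute log2 fold change was 0.13 for the family and 0.21 for all genes tested. In 4 members (*Bcl2*, *Bak1*, *Bid* and *Bad*) both *Dnmt1* KO libraries lay above both control libraries, in 0 members both lay below, and in 6 members the genotypes overlapped. Over all genes tested, 57.4% had no overlap between genotypes, and in 28.4% both *Dnmt1* KO libraries were above both control libraries and in 29.0% below them. With 2 libraries per genotype, the smallest p of an exact two-sided permutation test for 1 gene is 0.333, and each adjusted p therefore draws on the spread of other genes through limma's model. As these are bulk samples, a lower share of a cell type and less RNA per cell cannot be told apart.

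**Figure D1:**
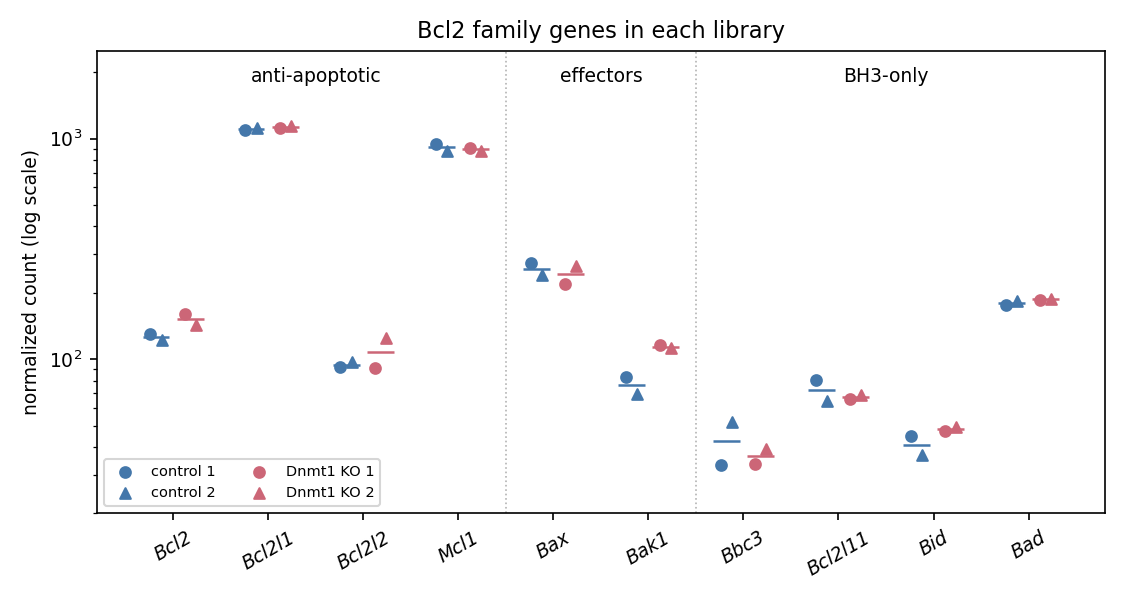
Normalized count (log scale) of each Bcl2 family gene in the 2 control and 2 *Dnmt1* KO libraries; each point is 1 library, and each short line is the mean of a genotype. *Bcl2l1* and *Mcl1* lie between 878 and 1142 in every library, *Bak1* is the gene whose genotypes are set farthest apart, at 69.4 and 83.2 against 113 and 115, and the 2 control libraries of *Bbc3* span 33.1 to 52.1.

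None of the 4 anti-apoptotic genes passed limma's test, with 0 at an unadjusted p below 0.05 and 0 called by edgeR, DESeq2 or limma-voom. The shares over all genes tested were 17.3% with limma (30.2% unadjusted), 17.6% with edgeR, 9.26% with DESeq2 and 17.4% with limma-voom. Beside them, 0 of 4 does not set these genes apart. *Bcl2l1*, whose main product BCL-XL maintains the survival of young neurons, was on chromosome 2 from 152622582 to 152673655 (GRCm39) and was the most abundant family member per kb of transcript. Control libraries had 1094 and 1114 normalized counts and *Dnmt1* KO libraries 1113 and 1142, so the genotypes overlapped. The log2 fold change was 0.030 (standard error 0.065, 95% interval -0.11 to 0.17, limma's adjusted p = 0.807), which bounds a difference between 0.927-fold and 1.12-fold. The count covers all 24 annotated transcripts of the gene, and the long form and the short, pro-apoptotic splice form were not separated.

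*Mcl1* encodes a short-lived survival protein on which neural progenitors and newborn neurons depend. It was on chromosome 3 from 95566026 to 95570487 and was counted at 947 and 878 in control and at 905 and 879.5 in *Dnmt1* KO libraries. Both *Dnmt1* KO values fell inside the control range, and the log2 fold change was -0.031 (standard error 0.072, 95% interval -0.19 to 0.12, adjusted p = 0.822 from limma).

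*Bcl2*, which gave the family its name, was on chromosome 1 from 106465908 to 106642060. It was counted at 131 and 123 in control (127 ± 5.76, SD, n = 2) and 161 and 143 in *Dnmt1* KO libraries (152 ± 12.5, SD, n = 2). Both *Dnmt1* KO libraries were above both control libraries, but the difference did not pass the test over all genes, with a log2 fold change of 0.26 (standard error 0.15, 95% interval -0.065 to 0.58, limma's adjusted p = 0.277). The interval includes 0 as well as a rise of the size seen for *Bak1*.

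*Bcl2l2*, the gene of BCL-W, was on chromosome 14 from 55120778 to 55126551 and had 92.2 and 97.0 normalized counts in control and 90.7 and 125 in *Dnmt1* KO libraries. A single library, *Dnmt1* KO replicate 2, stood above the other three, and the log2 fold change was 0.17 (standard error 0.19, 95% interval -0.24 to 0.58, adjusted p = 0.611 from limma). Without that library it was -0.059. *Gm20521*, an annotated protein-coding gene on the same strand that shares 594 exonic bases with *Bcl2l2*, was counted at 47.4 and 56.1 in control and 31.6 and 37.1 in *Dnmt1* KO libraries (log2 fold change -0.58, limma's adjusted p = 0.166). How reads were divided between both genes is not known, so the value of *Bcl2l2* is uncertain.

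Of both effector genes, *Bak1* passed the test and *Bax* did not, and the difference between the 2 genes was not tested. *Bak1*, whose product sits in the outer mitochondrial membrane and forms pores there when activated, was on chromosome 17 from 27238784 to 27247983 (minus strand). The control libraries held 83.2 and 69.4 normalized counts of it, the *Dnmt1* KO libraries 115 and 113. Both *Dnmt1* KO libraries lay above both control libraries, and the gap between genotypes exceeded the difference between the control libraries. *Bak1* rose from 76.3 ± 9.76 to 114 ± 2.03 (SD, n = 2 each), a ratio of 1.49, with a log2 fold change of 0.58 (standard error 0.19, 95% interval 0.18 to 0.97, adjusted p = 0.0435 from limma). The values rest on 93 and 68 reads in control and 117 and 103 reads in *Dnmt1* KO libraries, and counting alone gives an SD of 10.2% of the mean at this depth. The call was lost when any 1 of the 4 libraries was left out (log2 fold change 0.45 to 0.71, limma's adjusted p = 0.061 to 0.23).

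*Bax*, whose product moves from the cytosol to the mitochondria on activation, was on chromosome 7 from 45111015 to 45116325 (minus strand). It was counted at 274 and 239.9 in control and at 219 and 266 in *Dnmt1* KO libraries. The genotypes overlapped and the *Dnmt1* KO libraries spanned the wider range, with a log2 fold change of -0.088 (standard error 0.13, 95% interval -0.36 to 0.19, limma's adjusted p = 0.704). *Bax* was 1 of the 6 members whose sign was not stable, since it turned to 0.14 once the dependence on transcript length and GC content was taken out of every library. Within each library, the level of *Bak1* per kb of transcript relative to that of *Bax* does not depend on the size factors. It was 0.123 and 0.117 in control and 0.214 and 0.172 in *Dnmt1* KO libraries, and the genotypes did not overlap. The ratio holds the called gene, so it adds no separate support, and it was not tested. Of all genes tested, 57.4% had no overlap between genotypes.

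The 250 bases upstream of both effector genes are shown because the deleted enzyme methylates cytosine in CpG dinucleotides and 1 of these 2 genes passed the test. Each window ends at the base before the start of the GENCODE canonical transcript, is written 5′ to 3′ on the strand of the gene (minus for both), and has its CpG dinucleotides in capitals. The *Bak1* window is chr17:27247984-27248233 and the *Bax* window chr7:45116326-45116575, both in GRCm39.
Bak1: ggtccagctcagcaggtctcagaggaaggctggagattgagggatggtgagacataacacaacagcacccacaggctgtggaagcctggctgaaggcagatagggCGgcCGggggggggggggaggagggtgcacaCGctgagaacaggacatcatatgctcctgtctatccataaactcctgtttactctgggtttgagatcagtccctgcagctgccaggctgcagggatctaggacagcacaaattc
Bax: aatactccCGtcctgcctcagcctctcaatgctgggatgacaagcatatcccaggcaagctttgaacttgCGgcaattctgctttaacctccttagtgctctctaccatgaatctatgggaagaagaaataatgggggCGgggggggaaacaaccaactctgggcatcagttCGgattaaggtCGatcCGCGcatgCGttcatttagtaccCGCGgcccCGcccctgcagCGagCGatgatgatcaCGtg
The *Bak1* window holds 3 CpG and the *Bax* window 14. Across the same windows of 21667 protein-coding genes, the median was 8 CpG and the quartiles were 3 and 16. Among the 10 family members, the windows held 3 CpG (*Bak1* and *Bbc3*) to 36 CpG (*Bcl2*), with a median of 16.5, and *Mcl1*, *Bcl2l11* and *Bcl2l1* had 26, 24 and 20. CpG number is a property of the sequence, and DNA methylation in these windows was not analysed here.

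None of the 4 BH3-only genes passed limma's test, with 0 at an unadjusted p below 0.05 and 0 called by edgeR, DESeq2 or limma-voom. Beside the shares over all genes given for the anti-apoptotic genes, 0 of 4 does not set these genes apart either. *Bad*, whose product is inactivated by phosphorylation in response to growth factors, was on chromosome 19 from 6918902 to 6929280. It was the most abundant of these genes per kb of transcript, with 176 and 183 normalized counts in control and 186 and 187 in *Dnmt1* KO libraries. Both *Dnmt1* KO libraries were slightly above both control libraries, and the log2 fold change of 0.056 (standard error 0.13, 95% interval -0.22 to 0.33, adjusted p = 0.821 from limma) was far smaller than that of *Bak1*.

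*Bid*, whose product is cut by caspase-8 and links death receptors to mitochondria, was on chromosome 6 from 120862525 to 120894171. It had 44.7 and 36.8 normalized counts in control and 47.3 and 49.2 in *Dnmt1* KO libraries. Although the genotypes did not overlap, the log2 fold change of 0.25 came with a standard error of 0.26 and a 95% interval of -0.32 to 0.81 (limma's adjusted p = 0.585), and only 36 to 50 reads per library lie behind it.

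*Bcl2l11*, the gene of BIM, which is induced in neurons deprived of trophic factors, was on chromosome 2 from 127967958 to 128004476. Its values were 80.5 and 64.3 in control and 66.1 and 68.8 in *Dnmt1* KO libraries, the latter lying within the control range. The log2 fold change was -0.092 (standard error 0.22, 95% interval -0.55 to 0.37, adjusted p = 0.820 from limma).

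*Bbc3*, the gene of PUMA and a direct target of p53, was the least abundant member per kb of transcript and was on chromosome 7 from 16042318 to 16052130. It was counted at 33.1 and 52.1 in control and at 33.5 and 39.3 in *Dnmt1* KO libraries. The highest value was that of control replicate 2, and the 2 control libraries alone span both *Dnmt1* KO libraries (log2 fold change -0.19, standard error 0.30, 95% interval -0.83 to 0.45, adjusted p = 0.728 from limma). With 34 to 51 reads per library, the interval allows changes from 0.562-fold to 1.37-fold, and without control replicate 2 the log2 fold change was 0.13.

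**Figure D2:**
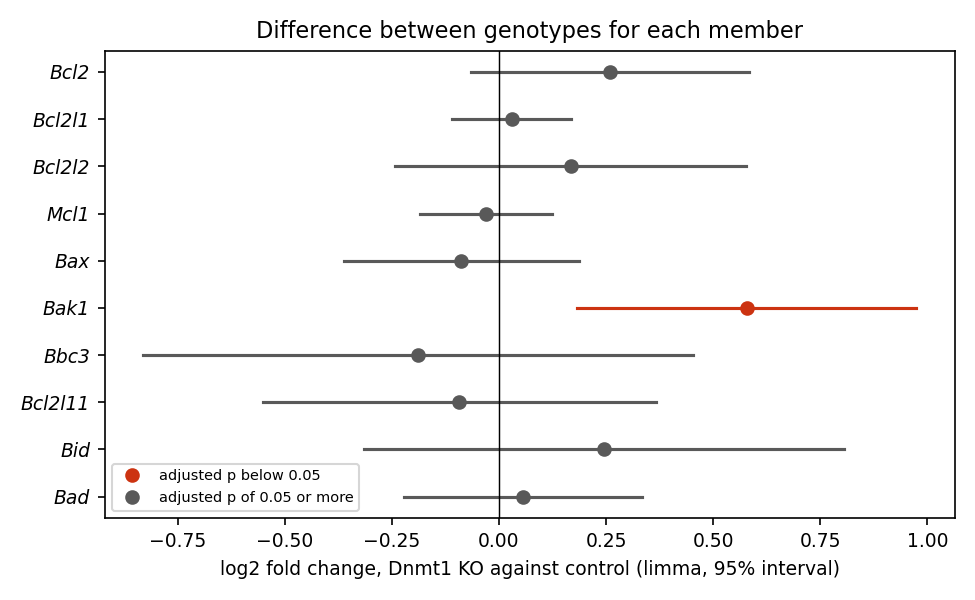
Log2 fold change of each member between *Dnmt1* KO and control cells; points are estimates from limma and lines their 95% intervals, with adjusted p over all genes tested. The interval of *Bak1* runs from 0.18 to 0.97, and the intervals of the other 9 genes include 0, from the narrow ones of *Bcl2l1* (-0.11 to 0.17) and *Mcl1* (-0.19 to 0.12) to the widest one of *Bbc3* (-0.83 to 0.45).

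The precision of these comparisons followed the depth of the gene. For *Bcl2l1* and *Mcl1*, counted with 805 to 1223 reads per library, the standard error was 0.065 and 0.072 on the log2 scale. For *Bbc3*, *Bid* and *Bcl2l11*, with 34 to 90 reads, it was 0.22 to 0.30. A rise of the size seen for *Bak1* lies inside the 95% interval of *Bid* and, near its upper edge, of *Bcl2*. A fall of that size lies inside the interval of *Bbc3*.

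Levels of different genes were compared per kb of the annotated transcript with the longest coding sequence. In control libraries, *Bcl2l1* had 314, *Bax* 265 and *Mcl1* 261 normalized counts per kb, followed by *Bad* with 100.2. The other 6 genes lay between 15.9 and 32.0 per kb, in the order *Bak1*, *Bcl2l11*, *Bid*, *Bcl2l2*, *Bcl2* and *Bbc3*. Over all 4 libraries, the ranges of *Bax* and *Mcl1* overlapped, as did those of each pair of neighbours from *Bcl2l11* down to *Bbc3*, so that order within these genes is not resolved. *Bcl2l1* stood above *Bax*, *Mcl1* above *Bad*, *Bad* above *Bak1*, and *Bak1* above *Bcl2l11* without overlap, although the last gap was only 29.1 against 28.6. In *Dnmt1* KO libraries, *Bak1* was at 47.7 and kept the fifth rank. The length of *Bax* was 968 bases against 1791 to 7247 in the other members, and per-kb levels move with the choice of transcript.

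Summed by role, the anti-apoptotic genes came to 622 and 607 normalized counts per kb in control and to 619 and 625 in *Dnmt1* KO libraries. *Bcl2l1* and *Mcl1* made up 92.3% to 93.7% of this sum in every library, *Bcl2* and *Bcl2l2* the remainder. The effectors summed to 318 and 277 in control and 275 and 321 in *Dnmt1* KO libraries, and the BH3-only genes to 164 and 165 against 166 and 171. The ratio of the anti-apoptotic sum to that of effectors and BH3-only genes was 1.29 and 1.38 in control and 1.40 and 1.27 in *Dnmt1* KO libraries, so that both *Dnmt1* KO values bracketed the control range. *Bax* supplied most of the effector level in each library, and its spread between libraries of 1 genotype set the range of the effector sum.

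**Figure D3:**
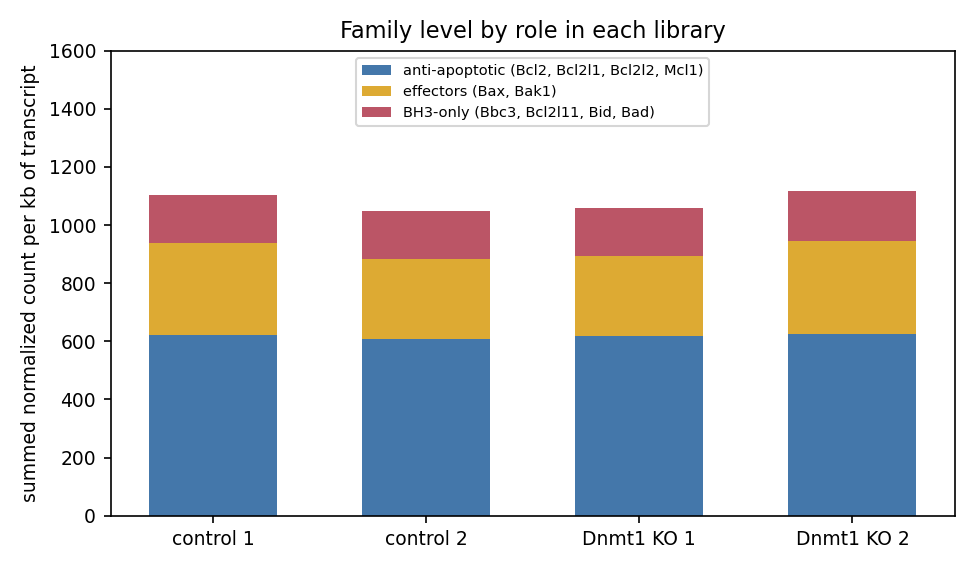
Summed normalized count per kb of transcript in each library, stacked by role (anti-apoptotic, effectors, BH3-only). The bars of the 4 libraries have nearly the same make-up, with 56.0% to 58.4% from anti-apoptotic genes, 25.9% to 28.8% from effectors and 14.9% to 15.7% from BH3-only genes.

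The call of *Bak1* lay close to the threshold. It was higher in *Dnmt1* KO cells under all 18 alternative ways of processing, with a log2 fold change of 0.45 to 0.71, and passed the test in 10 of them. With edgeR's quasi-likelihood test on recovered reads its adjusted p was 0.0421, and with limma-voom 0.0477, tests that called 17.6% and 17.4% of all genes, whereas DESeq2's Wald test, the test of the study, gave 0.255 and called 9.26% of all genes tested. When any 1 of the 4 libraries was left out, limma no longer called *Bak1*. Its adjusted p was then 0.061 without control replicate 1, 0.23 without control replicate 2, 0.12 without *Dnmt1* KO replicate 1 and 0.0932 without *Dnmt1* KO replicate 2, while 11.5%, 10.6%, 15.4% and 14.7% of all genes tested were called in these fits. The adjusted p was 0.0532 when genes down to a mean of 1 were tested, with 11.5% of them called, and 0.0743 with no filter, with 6.98% called. Without the variance trend, limma called 0 genes (0.00%) and gave *Bak1* an adjusted p of 0.115.

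**Figure D4:**
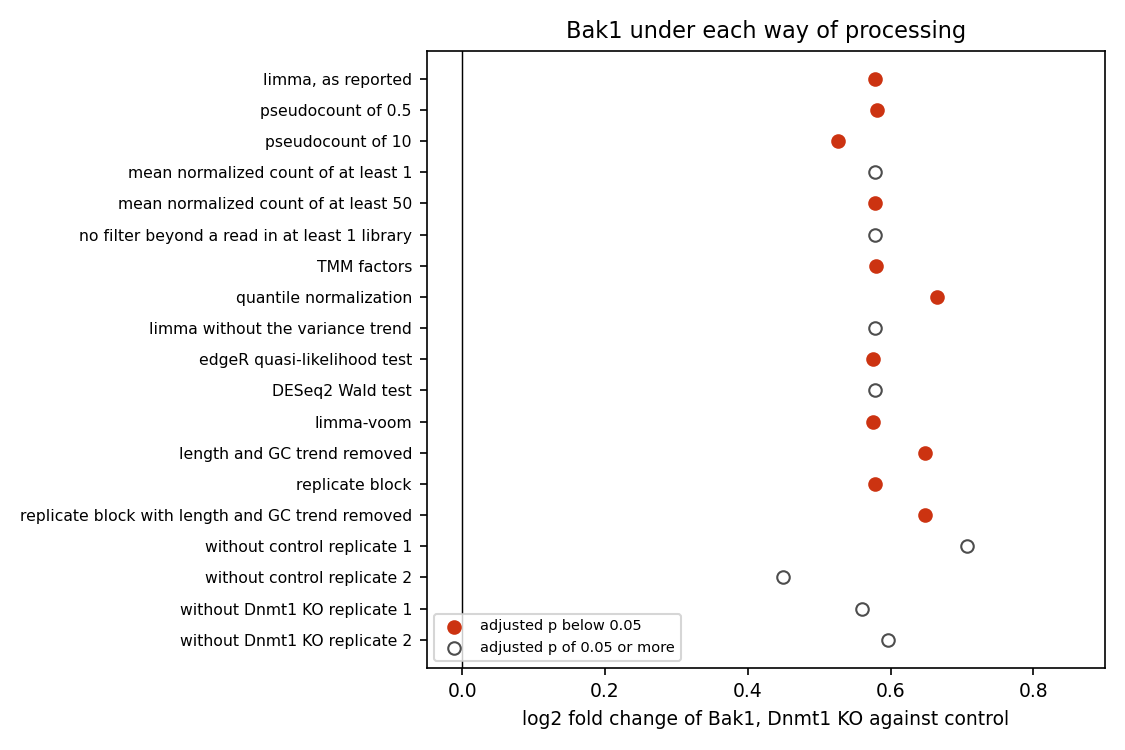
Log2 fold change of *Bak1* between *Dnmt1* KO and control cells as reported (top) and under each of 18 alternatives; filled points have an adjusted p below 0.05 and open points do not. The estimate stays between 0.45 and 0.71, and the open points are those with the lower filters, from DESeq2, from limma without the variance trend and from the 4 fits on 3 libraries.

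Several members share annotated exons with another gene. *Bak1* overlaps *Gm50253* on the opposite strand over 177 exonic bases, and *Gm50253* was counted at 76.1 and 91.9 in control and 101 and 99.4 in *Dnmt1* KO libraries (log2 fold change 0.26, standard error 0.19, limma's adjusted p = 0.398). It also overlaps *Ggnbp1*, with a mean of 2.54 normalized counts, over 437 bases. *Bid* overlaps *Bcl2l13*, itself a member of the wider family with a mean of 352 normalized counts, over 3059 exonic bases on the opposite strand, against a mean of 44.5 for *Bid*. *Bad* overlaps *Gpr137*, with a mean of 140.1, over 914 bases. The library kit preserves strand, but whether the counting used it is not given in the sources used here. If it did not, reads of *Bak1*, *Bid* and *Bad* could not be told apart from those of these neighbours.

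The wider cell death pathway was described by 6 further gene lists, whose counts stand beside 17.3% of all genes tested called by limma and 30.2% at an unadjusted p below 0.05. Of 17 other Bcl2 family genes, 9 could be tested and limma called 0 of them (2 at an unadjusted p below 0.05, and 0 with edgeR, DESeq2 or limma-voom). Their median log2 fold change was -0.017. The lowest, and the only one that lay outside -0.57 to 0.10, was *Bcl2l12* at -1.30 (adjusted p = 0.129 from limma), named here after its values were seen. It had 35.8 and 11.2 normalized counts in control and 8.88 and 6.56 in *Dnmt1* KO libraries, with control replicate 1 standing apart. Its mean was 23.5 in control and 7.72 in *Dnmt1* KO libraries, so *Bcl2l12* reached the filter for testing only through the control libraries. Its log2 fold change was -2.09 without control replicate 2, where control rested on the library standing apart. Without control replicate 1 it was -0.50. *Bmf*, a BH3-only gene, did not pass with all libraries (log2 fold change -0.57, adjusted p = 0.154 from limma). Its log2 fold change was -0.94 without *Dnmt1* KO replicate 2 and -0.19 without *Dnmt1* KO replicate 1. The 8 genes that could not be tested were *Bcl2a1a*, *Bcl2a1b*, *Bcl2a1d*, *Bcl2l10*, *Bik*, *Pmaip1*, *Bcl2l14* and *Bcl2l15*. *Pmaip1*, which encodes the p53 target NOXA, had 1.09 to 6.26 normalized counts per library. *Bcl2a1a*, *Bcl2a1d* and *Bcl2l14* had 0 reads in all 4 libraries, where a count of 0 allows up to 2.68 to 3.28 normalized counts by counting error alone. The 3 *Bcl2a1* genes are near-identical copies, and their reads may have been split or lost in counting.

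Downstream of the mitochondria, 18 of 19 genes of the apoptosome, the caspases and the inhibitors of apoptosis were tested, and *Birc3* was too low. Limma called 1 higher and 1 lower, 11.1% of those tested, while edgeR called 3, limma-voom 2 and DESeq2 1. With limma, 3 (16.7%) had an unadjusted p below 0.05. *Birc6*, which encodes a giant inhibitor of apoptosis that ubiquitinates caspases, rose from 2400 and 2325 to 2809 and 2704 normalized counts (log2 fold change 0.22 ± 0.052, SE, with limma's adjusted p = 0.0082). *Casp8*, the initiator caspase of death receptors, which also cleaves BID, fell from 20.6 and 13.3 to 3.95 and 4.37 (log2 fold change -1.77, standard error 0.57, limma's adjusted p = 0.0448). Its mean was 16.9 in control and 4.16 in *Dnmt1* KO libraries, so it reached the filter of 10 only through the control libraries. Both *Dnmt1* KO values lay near the 2.96 and 3.28 normalized counts that a count of 0 allows in these libraries. *Casp8* lost the call with each library left out, at an adjusted p of 0.0538 to 0.229, and *Birc6* without control replicate 2 (0.0524) or *Dnmt1* KO replicate 1 (0.0678). *Casp9*, the initiator caspase that APAF1 activates, missed the threshold narrowly at 90.4 and 96.0 against 128 and 137 normalized counts (log2 fold change 0.50 ± 0.17, SE, with limma's adjusted p = 0.05002), and is named after its values were seen. It passed in 8 of 18 alternatives, edgeR among them (adjusted p = 0.047), with an adjusted p of 0.00907 to 0.282 over all 18.

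Upstream, 13 of 15 genes of the p53 pathway were tested, with *Eda2r* and *Perp* too low. Limma called 1 lower and 0 higher, and 3 (23.1%) had an unadjusted p below 0.05. *Gtse1*, a p53 regulator that is expressed in dividing cells, fell from 105 and 90.9 to 55.2 and 56.8 normalized counts (log2 fold change -0.79 ± 0.20, SE, with limma's adjusted p = 0.0144). Without control replicate 1 or control replicate 2, its adjusted p was 0.128 or 0.0511. The cycling markers, called lower in 12 of 12 cases, moved in the same direction as *Gtse1*, and their part in this value was not tested. Of 16 regulators of BH3-only genes, limma called 2 (12.5%), a share below the 17.3% of all genes tested. In this list 6 (37.5%) had an unadjusted p below 0.05 from limma, a share above the 30.2% of all genes tested. *Mapk10*, the neuronal JNK gene JNK3, rose from 1256 and 1109 to 1425 and 1630 (log2 fold change 0.37, standard error 0.078, limma's adjusted p = 0.00396). *E2f1*, a cell cycle transcription factor that can also induce BH3-only genes, fell from 108 and 154 to 59.2 and 66.6 (log2 fold change -1.03 ± 0.21, SE, with limma's adjusted p = 0.00286), again beside lower cycling markers. Without control replicate 2, neither was called, with limma's adjusted p at 0.0524 for *Mapk10* and 0.0757 for *E2f1*.

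Of 10 death receptor genes, 7 were tested and limma called 0, with 2 at an unadjusted p below 0.05 and 0 by edgeR, DESeq2 or limma-voom. *Fas*, *Fasl* and *Tnfrsf10b* were too low to be tested. None of 10 genes of outer mitochondrial membrane partners, such as the VDAC channels and mitofusins, was called by limma, with 3 at an unadjusted p below 0.05 and 0 by edgeR, DESeq2 or limma-voom. The median log2 fold changes of these lists were -0.18 for death receptors and -0.057 for the membrane partners, beside -0.016 for the apoptosome, caspase and inhibitor genes, -0.016 for the p53 pathway and 0.027 for the regulators of BH3-only genes.

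**Figure D5:**
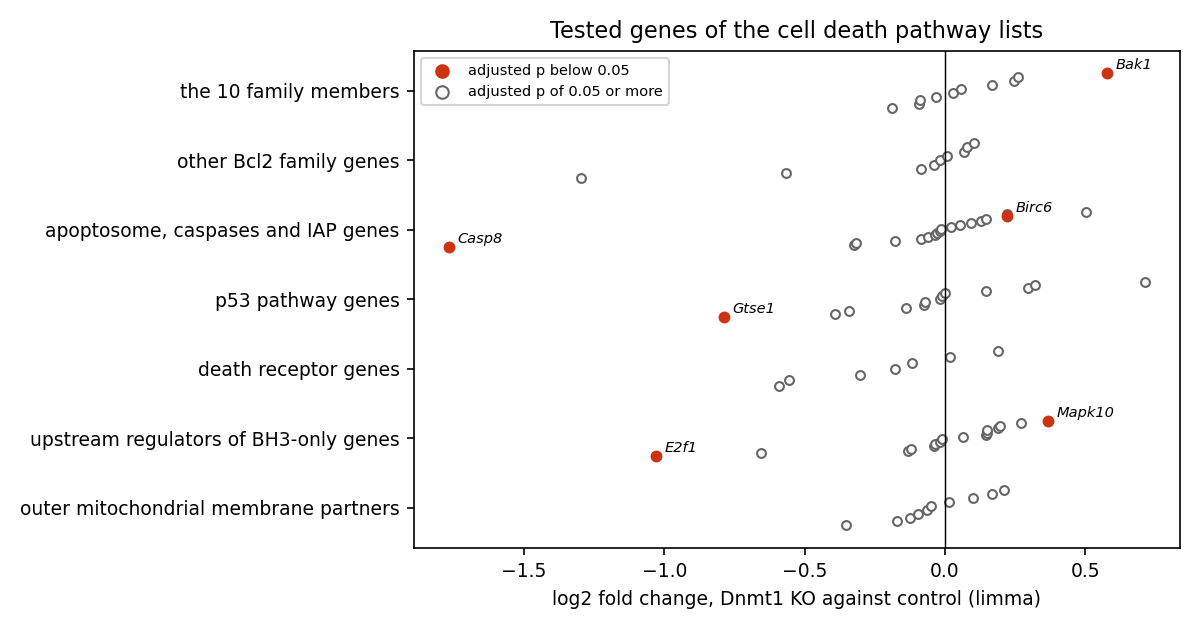
Log2 fold change of each tested gene in the 10 Bcl2 family members and in 6 further lists of the cell death pathway; each point is 1 gene, and filled points, which carry the gene name, have an adjusted p below 0.05 from limma. Most points lie near 0, and 6 genes are filled, *Bak1*, *Birc6* and *Mapk10* on the higher side and *Casp8*, *Gtse1* and *E2f1* on the lower side.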

How the data were processed

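RNA was sequenced from tdTomato-positive cells that were FAC-sorted from the basal telencephalon of E14.5 embryos, with 2 libraries per genotype, grouped by their labels. Per the labels and the methods of the study, strand-preserving total RNA libraries depleted of ribosomal RNA were processed with nf-core/rnaseq (Trim Galore, STAR on GRCm39, Salmon) and normalized in DESeq2. Whether counting used strand is not given in the sources used here. The signal that the authors deposited is the normalized count, the reads of a gene divided by 1 size factor per library. Divided by the value of 1 read, 89965 of 89965 values above 0 (100%) came out whole within 0.0001 reads, giving 6970247 to 8376711 reads per library over 56883 genes. Reads are the whole numbers recovered in this way, and whether they were rounded from Salmon's estimates is not known. Counting intervals and floors (3 reads for a count of 0) take them as counted and cover counting error only.

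The 14323 genes whose normalized count averaged 10 or more were tested with limma 3.58.1 in R 4.3.3 on log2(normalized count + 1), with a variance trend, genotype as the only term and Benjamini-Hochberg adjustment at 0.05. Fold changes are on this scale and understate the change of low genes. The count test on recovered reads was an alternative: edgeR 4.0.16 (quasi-likelihood) called 2528 genes and limma 2476. DESeq2 1.42.0, limma-voom, other pseudocounts (0.5 and 10), filters (1, 50 and none), TMM factors, quantile normalization, removal of a spline trend over transcript length and GC content (5 degrees of freedom), a replicate block and leaving out each library were the others. The fits were tested on simulated data. Libraries of 1 genotype differed more than sampling noise (chi-square per degree of freedom 2.31 and 2.71), so each counts as 1 sample, and between genotypes it was 9.35 to 9.64. As each library is a pool, p-values do not measure the spread between single embryos. They draw on the spread between pools of the gene itself and, through limma's model, of other genes. Members and gene lists were chosen with earlier results of these data known. Text names all 10 members, called genes of each further list (at most 5 by p), untested genes of those lists, *Dnmt1* and *Sst*, and others where said. Gene positions, transcript lengths and promoter windows came from GENCODE vM39 on GRCm39. Figures were drawn with matplotlib 3.10.9.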

Additional observations from a re-analysis of the deposited data

How the results depend on the processing

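*Bak1* was higher in *Dnmt1* KO cells under all 18 alternatives and called in 10. The count of 1 called family member became 0 with a filter at a mean of 1, with no filter, without the variance trend, with DESeq2 and when any 1 library was left out (0 to 0). Under these 8 settings the call of *Bak1* was lost at adjusted p values of 0.0532 to 0.255. Signs of members that were not called turned as follows: *Bcl2l1* to -0.028 with quantile normalization; *Bcl2l2* to -0.059 without *Dnmt1* KO replicate 2; *Mcl1* to 0.023 with the length and GC trend removed, with or without the block, and to 0.024 without control replicate 1. *Bax* turned to 0.14 with that trend removed, with or without the block, to 0.0072 without control replicate 1 and to 0.051 without *Dnmt1* KO replicate 1. *Bbc3* turned to 0.13 without control replicate 2, *Bcl2l11* to 0.010 with quantile normalization and to 0.068 without control replicate 1, and *Dnmt1* to 0.018 with the length and GC trend removed, with or without the block. The cause was not tested. Among the members' values under alternatives, 158 kept direction and side of the threshold, 8 lost the call and 12 turned sign. Over the fits with 1 library left out, the ranges were -0.059 to 0.39 for *Bcl2l2*, -0.085 to 0.024 for *Mcl1*, -0.23 to 0.051 for *Bax*, -0.51 to 0.13 for *Bbc3* and -0.25 to 0.068 for *Bcl2l11*. *Bbc3* and *Bid* gave no value at a filter of 50.

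Of all genes, limma called 2476, with 0 called without the variance trend (4323 at an unadjusted p below 0.05 with it), 1327 with DESeq2 and 1525 to 2205 with 1 library left out. With the length and GC trend removed 2587 were called, 1485 higher and 1102 lower, beside 1189 and 1287. The shared replicate numbers do not pair the libraries in the labels, and the differences between replicates 1 and 2 correlated across genes at -0.0847 between genotypes. With the replicate number as a block, 2957 genes were called, 1 member among them. With the block, which called 20.6% of all genes tested, 3 of 13 p53 pathway genes and 1 of 10 membrane partners were called. With block and trend removal together, 21.5% of all genes tested were called. Among them were 4 of 18 apoptosome, caspase and inhibitor genes and 2 of 13 p53 pathway genes. Also called were 4 of 16 BH3-only regulators and 3 of 10 membrane partners. With the trend removed alone, 18.1% of all genes tested were called, 4 of 16 regulators and 2 of 10 membrane partners among them. At a filter of 50, 22.3% of all genes tested and 1 of 10 membrane partners were called. Without the variance trend, 0 of the apoptosome, p53 and regulator lists were called, with DESeq2 1 apoptosome gene and 0 p53 genes, and with no filter 1 apoptosome gene. With 1 library left out, counts were 0 to 1 for other family genes, 0 to 1 for apoptosome genes, 0 to 2 for p53 genes, 0 to 2 for regulators and 0 to 1 for membrane partners. No scaling moved the median of all genes by over 0.1. Depth limits *Bbc3* and *Bid* most, where counting alone gives an SD of 15.9% and 14.9% of the mean.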
